A study of Homo sapiens with 27 samples.

Results

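This account compares 2 groups of insertion libraries made with the same short transposon, one with the parental piggyBac transposase and one with its hyperactive form. The libraries were chosen by their sample titles, which name the short transposon with wild-type piggyBac or with hyperactive piggyBac, and they are 6 of the 27 libraries of the series, 3 in each group. All came from HCT116, an established human colorectal carcinoma cell line. A self-reporting transposon, which transcribes its own RNA across its end into the neighbouring genomic DNA, was introduced with the transposase, and the cells were kept in puromycin at 3 µg/ml for 2 weeks. cDNA was then primed on the poly(A) tails of the RNA, and the junctions were enriched by PCR with a transposon-specific primer before tagmentation and sequencing. What both groups share is therefore the line, the transposon and the selection, and what differs is the transposase. The labels do not say which bases the short transposon lacks, which residues the hyperactive form changes, or whether the replicates were separate cultures, so p-values measure only the spread between these libraries. According to its title the series is about 2 limits on piggyBac in mammalian cells, namely phosphate groups on the N-terminus of the enzyme and unequal ends of the element, and the comparison here addresses how the hyperactive form changes the set of insertions of the short transposon.

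piggyBac is a cut-and-paste DNA transposon first found in a moth. Its transposase excises the element and joins it to a TTAA target, which is duplicated at both sides of the insertion. TTAA reads the same on both strands, so an element can enter a target in either orientation. In mammalian cells piggyBac insertions are known to favour open chromatin and the starts of active genes. The hyperactive form was selected for more frequent transposition and is widely used in gene delivery and in insertional screens.

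An insertion position is the first base of the 4-base target at the edge of a listed peak, and a position listed on both strands counts once. The height of a peak is its maximal read coverage, and no listed peak had a height under 5, so a position that is not listed in a library had less coverage or none. Positions were set against the promoter sequences of RefSeq (GRCh38.p14), which cover 250 bases before to 50 bases after the start of 35116 transcripts. Of these promoters 16178 (46.1%) hold a TTAA, 28889 TTAA in all. The 6 libraries together had 483 positions inside these windows, and 470 of them read TTAA, from 97.0% to 100% per library. Of these 470, 419 were considered as single targets. The others had no full 30-base window inside the promoter sequence, or lay on a chromosome whose targets are not reported here. They are in the direction of the gene, with the TTAA in capitals, and show what a target common to both transposases looks like: the following 30-base windows are the 7 of the 419 listed in all 6 libraries.
COLGALT1: gcgctatgtgcctTTAAgatcggtgcgggg
EFCAB2-AS1: tcctgcgtcctcaTTAAggaggcaaaatgg
EIF5A: acggactgagggtTTAAagaagatggtgtc
FAM117B: ggtctctttctctTTAAagagcagacggtc
GSN: attctctccctgcTTAAaaatcctcagtgt
MORC3: actgtaccctgctTTAAccagtcaggcaat
PRR14: gtaagcttggtttTTAAaggagccggaggt
They lie at chr19:17555483-17555512 (plus strand, COLGALT1, a collagen galactosyltransferase), chr1:244971071-244971100 (minus strand, the antisense RNA EFCAB2-AS1), chr17:7306876-7306905 (plus strand, the translation factor gene EIF5A), chr2:202634808-202634837 (plus strand, FAM117B), chr9:121286327-121286356 (plus strand, the actin-severing protein gene GSN), chr21:36320062-36320091 (plus strand, the nuclear ATPase gene MORC3) and chr16:30650739-30650768 (plus strand, PRR14). The target begins 153, 218, 110, 148, 209, 122 and 26 bases before the RefSeq start in the same order. At the MORC3 target the heights were 44, 23 and 14 in the parental libraries and 10, 22 and 11 in the hyperactive ones. At the EFCAB2-AS1 target they were 11, 12 and 16 against 28, 12 and 18. The heights of the groups overlapped at both targets.

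A second set among the 419 promoter targets considered separated the groups. It is shown because each was listed in all 3 libraries of one group and in none of the other. These were picked by that pattern, which is a description and not a test.
CEP164: cccattatctatcTTAAactacactctttc
HSD17B1-AS1: aacgcgatctatcTTAAttagccacccaca
KCNK5: cgccgggcgctggTTAAagaggcgtgcgga
LOC101928279: atggagtgcttcaTTAAgatcgcttcaaag
MC1R: actgtggtgttttTTAAcgtaaaggagatc
RNF43: agaacgggtctggTTAAgtaagtgttgtgt
The first 5 were listed only in the hyperactive libraries and the last only in the parental ones. CEP164 (chr11:117327633-117327662, plus strand) encodes a centriole appendage protein, KCNK5 (chr6:39229488-39229517, minus strand) a potassium channel and MC1R (chr16:89918691-89918720, plus strand) the melanocortin receptor. HSD17B1-AS1 (chr17:42555022-42555051, minus strand) is an antisense RNA and LOC101928279 (chr4:4761598-4761627, plus strand) is listed here by its symbol only. RNF43 (chr17:58417686-58417715, minus strand) encodes a ubiquitin ligase that removes Wnt receptors from the cell surface. Heights at the RNF43 target were 7, 13 and 21 in the parental libraries, and at the KCNK5 target they were 6, 5 and 7 in the hyperactive ones. The KCNK5 heights lie at or just above 5, the lowest height that is listed.

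In promoter windows the base before TTAA, read outward on either strand, was C in 35.7%, 36.4% and 35.5% of the flanks in the parental libraries and in 33.3%, 28.9% and 27.0% in the hyperactive ones, against 21.0% over all TTAA of the promoter windows. It was T in 38.9%, 43.0% and 39.1% against 41.3%, 48.0% and 49.2%, with 38.2% over all. G was less frequent than the 17.0% over all in each library, at 9.92% to 12.7% in the parental and 6.64% to 7.14% in the hyperactive libraries. Each library contributed 242 to 276 flanks, and no test was made of these shares.

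The hyperactive libraries were sequenced somewhat more deeply and listed fewer positions. The total in each file, taken as its mapped reads, was 183125, 179014 and 210694 in the parental libraries and 252304, 241556 and 256608 in the hyperactive ones. The parental libraries listed 9196, 9027 and 9212 distinct positions and the hyperactive libraries 7443, 6896 and 7505. Every hyperactive library was below every parental one, and the ratio of the geometric means was 0.796, a log2 difference of −0.33. The size of this difference depended on depth and on which positions were kept. It was −1.07 with the coverage thinned to the smallest file total, −0.83 for positions with a height of 10 or more and −0.68 without the positions of the symmetric libraries described below, and the groups did not overlap in any of these. Per 1000000 reads the parental libraries held 48122 ± 3812 positions (SD, n = 3) and the hyperactive ones 29098 ± 493 (SD, n = 3). The summed height of all listed positions was 41.7 ± 4.62 per 100 reads against 22.2 ± 0.33 (SD, n = 3 each). The coverage counts reads and not molecules. The median height was 7 in each parental library and 6 in each hyperactive one, and 27.2% ± 1.55 against 34.1% ± 0.53 of positions (SD, n = 3 each) stood at the lowest listed height of 5. The tallest 1% of positions held 4.53% ± 0.10 of the summed height in the parental libraries and 4.12% ± 0.20 in the hyperactive ones (SD, n = 3 each).

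Libraries of the 2 groups did not overlap in any of the 11 measures of number, height, sharing and location compared below. Each of the 11 exact permutation tests, two-sided with 3 libraries against 3, gave p = 0.1, which is the smallest p this design allows, and the Benjamini-Hochberg adjusted p was also 0.1. No single measure can therefore pass 0.05, and the differences are given by their size against the spread between replicates.

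Before the results on sharing and location, one property of the libraries needs stating. Symmetric-transposon libraries of the series, made with re-engineered piggyBac (sym_rePB) or its hyperactive form (sym_rehyPB), list fewer positions, 2814 to 4570 each, and many of these recur in the short-transposon libraries. One short hyperactive library listed on average 27.0% of the positions of a sym_rehyPB library, while another sym_rehyPB library listed 20.9% of them. For sym_rePB the figures were 28.2% and 20.9%. The short hyperactive lists are longer, at 6896 to 7505 positions each, so each pair of figures compares lists of unlike size. Of the positions that a short hyperactive and a sym_rehyPB library share, 94.2% were on the same strand. With the deep wild-type-transposon libraries of the piggyBac forms, positions shared with a short hyperactive library were on the same strand in 60.8% to 66.3%, as group means. With the shallow libraries of piggyBat, another transposase of the series, this mean was 87.8%. The labels do not say which libraries were prepared or sequenced together, and the part of such recurrence in the results was not tested. Many results are therefore given also after leaving out every position listed in any of the 6 symmetric libraries, which removes 13.7% of the distinct parental positions and 26.1% of the hyperactive ones. Such values are not given for, among others, the same-strand shares, sharing with wild-type-transposon libraries and distances to gene starts. They are also not given for the promoter windows, the height classes and the comparisons of transposons.

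Hyperactive libraries resembled one another far more than parental ones did. A parental library listed 7.93%, 8.16% or 8.48% of its positions also in 1 other parental replicate, averaged over the other two. In the hyperactive libraries this share was 23.1%, 24.6% and 22.9%. The means were 8.19% ± 0.28 and 23.5% ± 0.93 (SD, n = 3 each), 2.87 times higher with the hyperactive form. Without the positions of the symmetric libraries the shares were 4.02% ± 0.18 and 9.32% ± 0.50 (SD, n = 3 each). A hyperactive library thus still shared more than a parental one, with a smaller gap in percentage points.

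**Figure D1:**
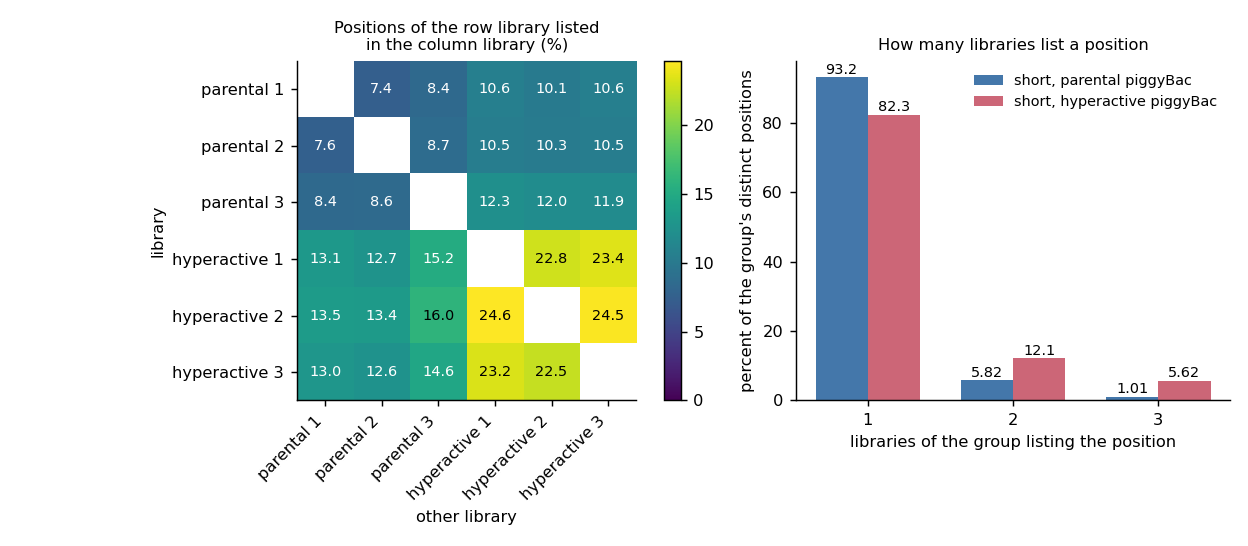
Left, percent of the positions of each library (rows) that are listed at the same base in each other library (columns). Right, percent of the distinct positions of each group listed by 1, 2 or 3 of its libraries, where 5.62% of the hyperactive and 1.01% of the parental positions were listed by all 3.

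The parental group held 25443 distinct positions and the hyperactive group 17710. Of these, 256 parental positions (1.01%) and 996 hyperactive positions (5.62%) were listed by all 3 libraries of their group. The groups had 4012 positions in common, 15.8% of the parental and 22.7% of the hyperactive set, and 105 positions were listed in all 6 libraries. Of the 996 recurrent hyperactive positions, 287 (28.8%) were in no parental library, and 851 (85.4%) were listed in a symmetric library. Of the 256 recurrent parental positions, 38 (14.8%) were in no hyperactive library and 195 (76.2%) were in a symmetric one. Most recurrent positions of both groups were thus listed in a symmetric library too.

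Positions listed by all 3 libraries of a group were taller and lay elsewhere than those listed by 1. Their median height, as the mean over libraries, was 10.7 in the parental and 9.33 in the hyperactive group, against 7 and 6 for positions of 1 library. In the parental group 18.8% of the positions in all 3 libraries lay at most 1 kb from where a protein-coding gene begins or ends, and 9.29% of those in 1 library. In the hyperactive group the shares were 17.4% and 11.9%. Among positions of 2 libraries they were 15.7% in the parental and 16.1% in the hyperactive group. The hyperactive share was thus the lower one only among positions of all 3 libraries, 256 of them parental. Within 5 kb of any gene end, positions of all 3 libraries had shares of 48.0% in the parental and 48.3% in the hyperactive group. These pooled shares were not tested.

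Sharing also ran across the groups. A parental library had 10.97% ± 0.94 (SD, n = 3) of its positions in 1 hyperactive library, against 8.19% in another parental one. With the positions of symmetric libraries left out these shares were 3.77%, 3.77% and 4.57% in a hyperactive library and 3.83%, 4.02% and 4.2% in another parental one, so that the first was the lower one in parental replicates 1 and 2. A hyperactive library had 13.8% ± 0.48 (SD, n = 3) of its positions in 1 parental library, less than the 23.5% in another hyperactive one, and 6.46% ± 0.16 against 9.32% without the positions of symmetric libraries. Parental replicate 3, the parental library with the highest total, shared 11.9% to 12.3% of its positions with single hyperactive libraries, and replicates 1 and 2 shared 10.1% to 10.6%. Among shared positions with 1 strand in each library, the strand was the same in 86.7% ± 0.35 within the parental and 94.5% ± 0.24 within the hyperactive group (SD, n = 3 each). The last difference has an exact permutation p of 0.1 and an adjusted p of 0.138 over the 11 measures added after the files were seen. A hyperactive library also had more of its positions in the deep wild-type-transposon piggyBac libraries than a parental one, 53.2% ± 0.63 against 40.5% ± 1.22 as the mean over single libraries (SD, n = 3 each).

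A position was listed on both strands in the same library in 1.02% ± 0.12 of parental and 2.36% ± 0.09 of hyperactive cases (SD, n = 3 each), that is 80 to 102 positions in a parental library and 162 to 183 in a hyperactive one. Without the positions of symmetric libraries the shares were 0.350% ± 0.075 and 0.550% ± 0.137 (SD, n = 3 each), a difference of 0.2 points in place of 1.34. Over all positions of a single strand the plus strand held 50.01% ± 0.68 and 49.8% ± 0.77 (SD, n = 3 each; exact permutation p = 0.7), and the libraries of the groups overlapped.

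**Figure D2:**
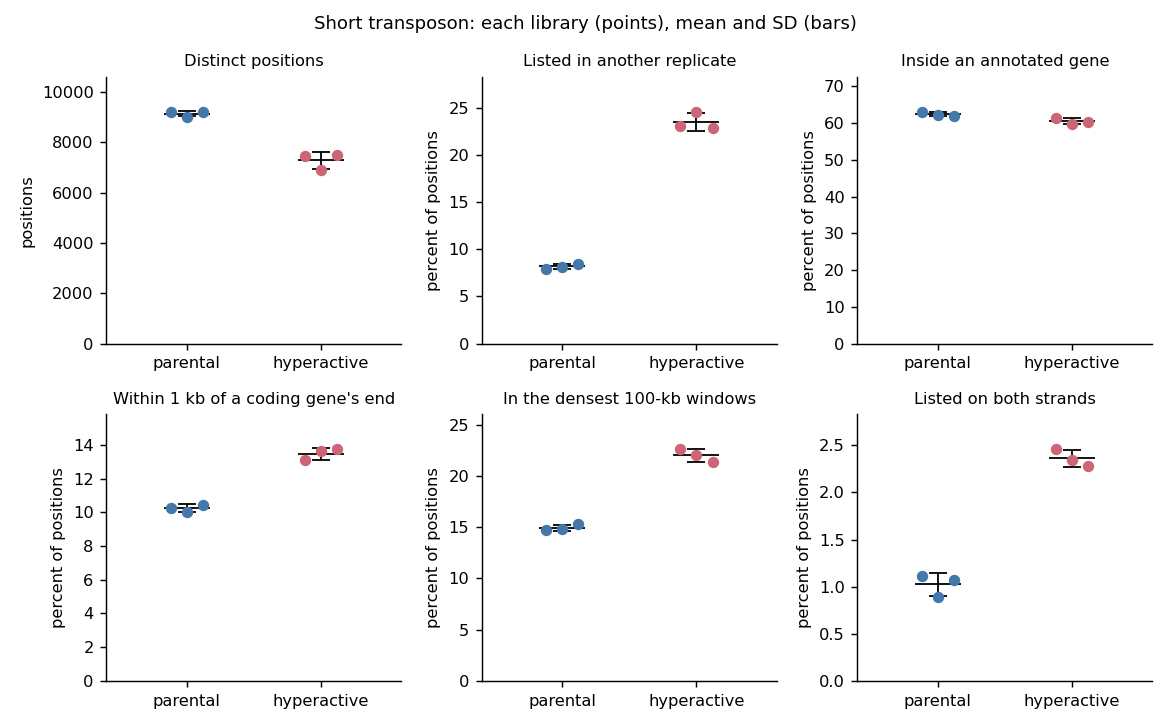
Number of distinct positions per library and 5 shares of positions in percent, for the parental and the hyperactive group with the short transposon. Points are libraries and bars are the mean and SD of 3, and the groups do not overlap in any panel.

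Fewer insertions of the hyperactive form lay inside genes, and more lay near the ends of genes. Inside an annotated gene of the RefSeq table lay 63.0%, 62.3% and 62.0% of the positions of the parental libraries and 61.3%, 59.8% and 60.3% of those of the hyperactive ones. The gap between the nearest libraries of the 2 groups is small here. Without the positions of the symmetric libraries the groups overlapped, at 63.1% ± 0.59 and 61.5% ± 1.27 (SD, n = 3 each; exact permutation p = 0.3). No more than 5 kb from the boundary of any annotated gene lay 42.1%, 43.1% and 42% of parental and 46%, 46.2% and 45.9% of hyperactive positions. For 1 kb around the boundaries of protein-coding genes the shares were 10.3%, 10% and 10.4% against 13.1%, 13.6% and 13.7%. The last measure was 1.32 times higher with the hyperactive form, and without the positions of symmetric libraries it was 9.05% ± 0.18 against 11.7% ± 0.42 (SD, n = 3 each).

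Starts of genes could be told from ends for genes that the promoter table lists. Within 1 kb of a start of a protein-coding gene lay 7.37%, 7.57% and 7.59% of the positions of the parental libraries and 10.05%, 10.06% and 10.14% of those of the hyperactive ones. The spread within each group is far smaller than the gap. From 1 to 5 kb away the shares were 12.1% ± 0.55 and 13.1% ± 0.40, from 20 to 100 kb 35.5% ± 0.64 and 33.3% ± 0.28, and beyond 100 kb 21.1% ± 0.37 and 20.2% ± 0.78 (SD, n = 3 each). The excess of hyperactive positions was thus largest in the first kilobase, and beyond 100 kb the libraries of the groups overlapped. In the promoter windows themselves lay 1.44% ± 0.11 of parental and 1.82% ± 0.11 of hyperactive positions (SD, n = 3 each). The start share and the window share each had an exact permutation p of 0.1 and an adjusted p of 0.138.

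**Figure D3:**
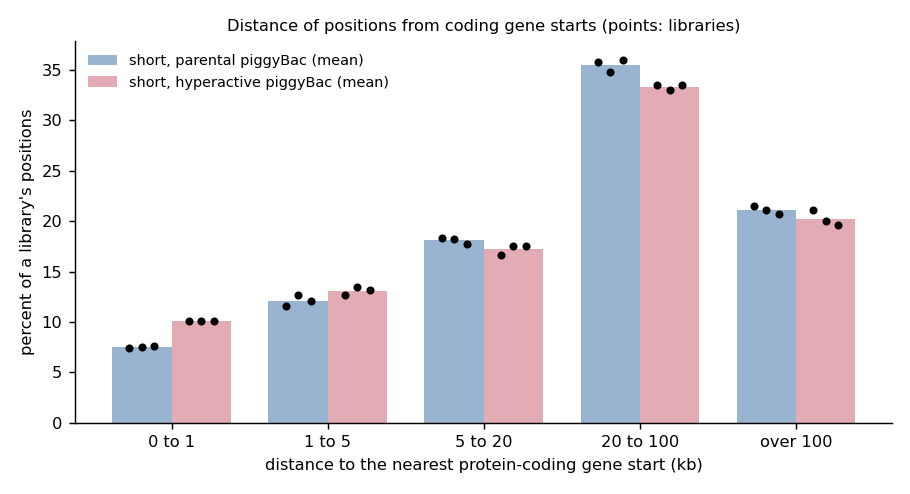
Percent of a library's positions in 5 classes of distance to the nearest protein-coding gene start. Bars are means of 3 libraries and points are libraries, and in the class nearest to a start the hyperactive libraries held 10.1% against 7.51% of positions.

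With both transposases the peak lay mostly on the strand opposite to the gene at promoters. In the promoter windows the peak lay on the strand opposite to the gene in 98 of 121, 99 of 114 and 114 of 138 positions of the parental libraries. In the hyperactive libraries it did so in 96 of 122, 112 of 129 and 104 of 128. The shares were 83.5% ± 3.02 and 82.3% ± 4.16 (SD, n = 3 each; exact permutation p = 0.7), and their ranges overlapped. Among the 419 promoter targets considered singly above, 32 were listed by 4 or more libraries with 1 strand in all of them. In 28 of the 32 this strand was the opposite one. Within protein-coding genes as a whole the peak lay on the sense strand in 40.9% ± 1.6 and 40.5% ± 0.72 of positions (SD, n = 3 each; exact permutation p = 0.8). The labels do not say how the listed strand relates to the orientation of the element.

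Insertions of the hyperactive form were more concentrated. The 270 densest windows of 100 kb, the top 1% of the 27008 windows with positions in the wild-type-transposon libraries with parental or hyperactive piggyBac, held 14.7%, 14.8% and 15.3% of parental and 22.6%, 22.1% and 21.3% of hyperactive positions. The ratio of the means was 1.47. Without the positions of the symmetric libraries the shares were 11.3% ± 0.09 and 15.9% ± 0.57 (SD, n = 3 each). Among positions that only 1 of the 6 libraries listed the shares were 10.2% ± 0.28 and 14.3% ± 0.81 (SD, n = 3 each), and the groups did not overlap. Such positions may have been present in other libraries at a height under 5, and the part of recurrence in the difference was not tested. The coding gene-end share differed among such positions too, at 8.31% ± 0.24 and 11.1% ± 0.64 (SD, n = 3 each).

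These differences were seen at each height. At heights of 5 to 6, 7 to 9 and 10 or more, the coding gene-end share was 9.17%, 9.79% and 12.6% in the parental and 12.4%, 14.5% and 15.2% in the hyperactive libraries, as means of 3. The hot-window share was 13.3%, 15.8% and 16.8% against 19.6%, 22.7% and 28.2%. Sharing with 1 other replicate was 5.46%, 7.96% and 13.2% against 14.4%, 25.5% and 47.5%. Taller positions were thus more often shared and more often near gene ends in both groups, and the groups did not overlap in any height class for these 3 measures. The mean share of tall positions itself was lower in the hyperactive libraries, with 18.6% ± 0.25 against 26.3% ± 1.98 at a height of 10 or more (SD, n = 3 each).

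The numbers of positions per gene were compared with limma on log2 of positions per 10000 plus 1, over the 104 protein-coding genes with a mean of at least 3 positions per library. With the hyperactive form 9 genes rose (8.65% of the genes tested) and 0 fell (0%) at an adjusted p under 0.05, and 24 had an unadjusted p under 0.05. In simulated counts with 2-fold changes this fit recovered 5 of 10 raised genes and 1 of 9 lowered ones. The lack of calls downward therefore does not show that no gene fell. The 9 were DLGAP1, PCDH7, MPP7, VTI1A, PHLDB2, MTHFD1L, SYTL3, NSMCE2 and AP3D1. The groups did not overlap in 17 genes that were higher (16.3%) and in 4 that were lower (3.85%). The median difference over all genes tested was 0.25 on the log2 scale, and 72 of 104 lay above 0, so that the genes holding many positions were higher on the whole. Scaled to the median over the genes, 2 were past the threshold, DLGAP1 and PCDH7. Without the positions of the symmetric libraries 53 genes could be tested and 1 was past it, DLGAP1.

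DLGAP1, which encodes a scaffold protein of the postsynaptic density, had the clearest rise among the called genes. It lies at chr18:3496032-4455307 on the minus strand and spans 959 kb. It held 19, 21 and 24 positions in the parental libraries and 43, 37 and 38 in the hyperactive ones, although the latter list fewer positions in all. Per 10000 positions this is 23.3 ± 2.70 against 54.0 ± 3.58 (SD, n = 3 each), a ratio of 2.32. The log2 difference was 1.18 ± 0.17 (SE; limma adjusted p = 3.4e-06), and it passed the threshold in each of the 15 alternatives, with adjusted p between 3.4e-09 and 0.0404. Most positions lay from 200 to 300 kb after the start of the transcript that the promoter table lists, a start inside the span of the gene. The densest 10 kb, 269 to 279 kb after the start, held 17 positions in the parental and 31 in the hyperactive libraries, each library counted. Of the 71 distinct hyperactive positions in the gene 54.9% were also in a symmetric library, against 52.0% of the 50 parental ones. Promoter targets of DLGAP1-AS1 and DLGAP1-AS2, antisense RNAs inside this region, were listed in all 3 hyperactive libraries and in 1 and 2 parental libraries.

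PCDH7, a protocadherin gene for cell adhesion, held more positions than any other gene. It lies at chr4:30720369-31146800 on the plus strand and spans 426 kb. Its counts were 112, 109 and 95 positions in the parental libraries and 141, 129 and 120 in the hyperactive ones, or 115 ± 10.5 and 179 ± 16.4 per 10000 (SD, n = 3 each). Groups did not overlap and the log2 difference was 0.63 ± 0.09 (SE; limma adjusted p = 4.3e-06). The value was 0.60 without the positions of symmetric libraries, where the limma adjusted p was 0.159, the highest of 15 alternatives. The lowest was 8.9e-12 and the call was kept in 14. The group held 246 distinct parental and 263 distinct hyperactive positions here, 117 of them in common, and 10 against 39 were in all 3 libraries of a group. Positions were spread over many peaks along the gene. Of 10-kb windows on a fixed grid, those from 300 and from 40 kb after the start differed most. They listed 15 parental and 32 hyperactive positions, and 9 and 25. In the grid window from 70 kb, the fullest of the grid, 29 and 35 were listed. The densest 10 kb at any place, 64 to 74 kb after the start, held 37 parental and 34 hyperactive positions, each library counted.

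**Figure D4:**
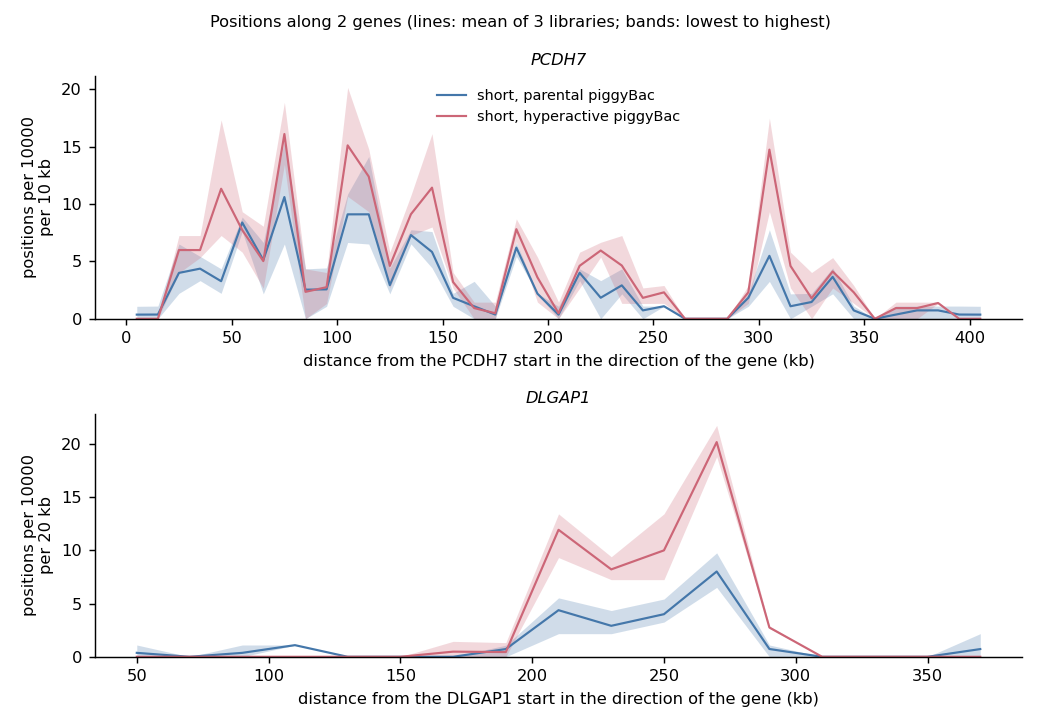
Positions per 10000 of a library along PCDH7 (10-kb windows) and DLGAP1 (20-kb windows), by distance from the RefSeq start in kb. Lines are means of 3 libraries and bands run from the lowest to the highest library, and in DLGAP1 the bands separate between about 200 and 300 kb.

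VTI1A, which encodes a SNARE protein of Golgi and endosome vesicles, held 31, 36 and 36 positions in the parental and 45, 40 and 49 in the hyperactive libraries (chr10:112446988-112855368). Its log2 difference was 0.69 ± 0.15 (SE; limma adjusted p = 9.0e-04). MPP7, a scaffold gene of epithelial cell polarity and tight junctions, held 24, 22 and 18 against 40, 25 and 34 positions (chr10:28050993-28335203), with a log2 difference of 0.91 ± 0.18 (SE; limma adjusted p = 6.1e-04). In the densest 10 kb of MPP7, 205 to 215 kb after its start, 8 parental and 29 hyperactive positions were listed. Both calls were kept when any 1 library was left out, and both were lost in 3 alternatives: with values scaled to the median over the genes, without the positions of symmetric libraries, and with all genes of a mean of at least 1 position tested. Over their 15 alternatives the adjusted p ran from 1.7e-04 to 0.325 in VTI1A and from 2.9e-05 to 0.405 in MPP7. The values without the positions of symmetric libraries were 0.69 for VTI1A and 0.49 for MPP7. Part of VTI1A overlaps ZDHHC6, and a position there counts for both genes.

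The other 5 called genes rested on smaller margins. PHLDB2, whose product anchors microtubules at the cell cortex, held 29, 33 and 33 parental and 36, 35 and 41 hyperactive positions. MTHFD1L, an enzyme of mitochondrial one-carbon metabolism, held 10, 15 and 15 against 20, 18 and 18. SYTL3, a synaptotagmin-like vesicle protein, held 6, 4 and 13 against 11, 12 and 14. The last 2 genes were NSMCE2, a SUMO ligase of the SMC5/6 complex, with 28, 18 and 28 against 30, 34 and 27 positions, and AP3D1, a subunit of the AP-3 vesicle adaptor, with 2, 1 and 1 against 7, 4 and 5. Raw counts of SYTL3 and NSMCE2 overlapped between the groups, and per 10000 positions they did not. Log2 differences were 0.55 ± 0.15, 0.79 ± 0.22, 1.07 ± 0.31, 0.63 ± 0.19 and 1.76 ± 0.56 in this order (SE), with limma adjusted p of 0.0195, 0.0195, 0.0195, 0.023 and 0.0384. Each of the 5 kept its direction in every alternative in which it was tested and lost its call in 8 or 9 of them. In NSMCE2 the log2 difference ran from 0.07 to 0.73 over these alternatives, with limma adjusted p up to 0.943. Each lost it without hyperactive replicate 2, and with the values scaled to the median. They also lost it without 1 or more parental libraries, namely parental replicates 1 and 2 for PHLDB2 and SYTL3, 1 for MTHFD1L, 2 and 3 for NSMCE2 and 3 for AP3D1. Without hyperactive replicate 1 MTHFD1L, and without hyperactive replicate 3 PHLDB2 and AP3D1, were lost as well. All 20 listings in AP3D1 fell in 1 window of 10 kb, at 8 distinct positions, and the gene overlaps DOT1L, so a position there can count for both. AP3D1 reached the mean of 3 positions needed for the test only through its hyperactive counts, so its call is not independent of that filter. Of its 8 distinct positions 75% were also in a symmetric library, and without those positions the gene was not tested.

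**Figure D5:**
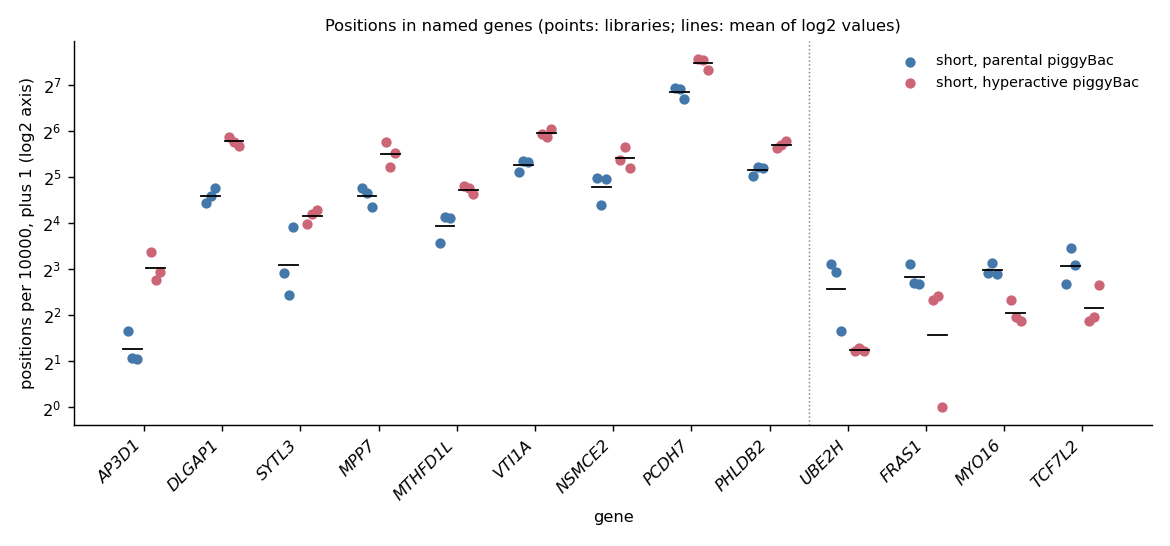
Positions per 10000 plus 1 on a log2 axis in the 9 genes past the limma threshold (left of the dotted line) and the 4 genes whose groups did not overlap and were lower with the hyperactive form (right). Points are libraries and lines are means of the log2 values, and FRAS1 had no listed position in 1 hyperactive library.

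Of the 10 genes with the most positions, PPP3CA, PALLD and PDE4B did not pass the test, and their values moved with the processing. PPP3CA, a catalytic subunit of calcineurin, held 21, 24 and 34 parental and 31, 22 and 26 hyperactive positions (log2 difference 0.33 ± 0.19, SE; limma adjusted p = 0.302). The PPP3CA difference was 0.19 without parental replicate 1 and 0.52 without parental replicate 3, and at a height minimum of 10 it was 1.254 and past the threshold. PALLD, an actin-bundling protein, held 21, 23 and 23 against 23, 28 and 25 (0.49 ± 0.18, SE; limma adjusted p = 0.0985), and the difference was past the threshold with the replicate block and stood at −0.027 at a height minimum of 10. PDE4B, a phosphodiesterase of cyclic AMP, held 10, 18 and 20 against 12, 13 and 19 (0.22 ± 0.25, SE; limma adjusted p = 0.765), with differences from −0.071 without parental replicate 1 to 0.397 without parental replicate 3. Each was higher with the hyperactive form per 10000 positions, and only in PALLD did the groups not overlap.

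Among the genes whose groups did not overlap, HMGB1 and DDX10 joined AP3D1, DLGAP1 and SYTL3 as the 5 with the largest differences upward. HMGB1, a chromatin protein, held 3, 1 and 1 against 4, 5 and 4 positions (1.38 ± 0.60, SE; limma adjusted p = 0.157), and DDX10, an RNA helicase, 3, 6 and 3 against 8, 6 and 7 (1.03 ± 0.35, SE; limma adjusted p = 0.0568). DDX10 was past the threshold, at 1.31, without parental replicate 2. The 4 lower genes were UBE2H, FRAS1, MYO16 and TCF7L2. UBE2H, a ubiquitin-conjugating enzyme, held 7, 6 and 2 parental and 1, 1 and 1 hyperactive positions. FRAS1, an extracellular matrix gene, held 7, 5 and 5 against 3, 3 and 0, and MYO16, an unconventional myosin, 6, 7 and 6 against 3, 2 and 2. TCF7L2, the transcription factor at the end of the Wnt pathway, held 5, 9 and 7 against 2, 2 and 4 (−0.91 ± 0.38, SE; limma adjusted p = 0.152), next to VTI1A on chromosome 10. None of the 4 passed the test, and their differences lay between −0.91 and −1.32. The FRAS1 difference was −0.46 without hyperactive replicate 3, the library in which it had no listed position. With counts this low the standard errors of these differences ran from 0.38 to 0.79. These 4 genes reached the mean of 3 positions needed for the test only through their parental counts, and HMGB1 only through its hyperactive ones.

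Lists of genes of known function were described without a test. Of all 20056 protein-coding genes, 30.0% held a position in the parental group and 20.9% in the hyperactive group, which lists fewer positions. Of the 41 Wnt pathway genes 15 (36.6%) and 14 (34.1%) held one, with 20.4 ± 2.52 and 15.02 ± 3.05 positions per 10000 in all (SD, n = 3 each), and the groups did not overlap. TCF7L2, with 5, 9 and 7 parental and 2, 2 and 4 hyperactive positions, was the only member that could be tested. RNF43, the list's member with the next most positions, held 4, 3 and 6 parental and 1, 1 and 0 hyperactive positions, and its promoter target is the one printed above that only parental libraries listed. CTBP2, a corepressor, held 1, 2 and 1 against 2, 2 and 2. The lower total of the Wnt list lay in TCF7L2 and RNF43. The summed positions of its other members were not lower per 10000 with the hyperactive form.

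Of the 22 genes at common fragile sites, very long genes that break under replication stress, 20 (90.9%) held a position in the parental and 12 (54.5%) in the hyperactive group. Per 10000 positions the list held 28 ± 8.92 and 15.6 ± 7.43 (SD, n = 3 each), with overlapping libraries. Among its leading members were LRP1B, with 3, 0 and 5 parental and 3, 0 and 2 hyperactive positions, and CTNNA3, with 2, 1 and 3 against 4, 0 and 1. Of the 25 long neuronal genes 6 (24.0%) and 2 (8%) held a position, with 3.28 ± 2.18 and 0.93 ± 0.81 per 10000 (SD, n = 3 each). ASTN2, CADM2 and KCNIP4 led this list with 3, 2 and 2 listings over all libraries. Libraries of the groups overlapped here as well.

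In the growth signalling and tumour suppressor lists the groups overlapped. The 24 receptor and RAS-PI3K genes held 16.7 ± 5.89 and 18.6 ± 9.28 positions per 10000 and the 24 tumour suppressor genes 15.7 ± 4.18 and 15.6 ± 6.82 (SD, n = 3 each). MET, the receptor of hepatocyte growth factor, held 12, 5 and 3 parental and 5, 3 and 9 hyperactive positions, and IGF1R and EGFR followed with 11 and 7 listings in all. SMAD3, a signal transducer of TGF-beta, held 4, 10 and 6 against 7, 4 and 4, followed by TGFBR2 and CDKN1A with 7 and 6 listings in all. MET and SMAD3, each the only member tested, differed by 0.15 and −0.04 on the log2 scale.

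The lists tied to the tissue held few positions. Of the 21 gut epithelial transcription factor genes 5 (23.8%) and 3 (14.3%) held a position. GRHL2 and HNF4A held 1, 5 and 1 and 1, 1 and 3 parental positions and 0 in every hyperactive library, while EHF held 0, 2 and 1 against 2, 0 and 2. Of the 17 epithelial keratin and adhesion genes 4 (23.5%) and 6 (35.3%) held one, with 1.82 ± 0.61 and 4.61 ± 1.70 per 10000 (SD, n = 3 each) and no overlap of the libraries. KRT8, an epithelial keratin, led with 1, 0 and 0 against 2, 2 and 0, and ITGA6 and KRT18 had 3 listings each. Of the 30 ribosomal protein genes 4 (13.3%) and 2 (6.67%) held a position, and of the 39 HOX genes 9 (23.1%) and 5 (12.8%). RPL13, RPS23 and RPLP0 had 3, 2 and 1 listings, and HOXB3, HOXA10 and HOXA3 had 8, 5 and 3. No member of any list was past the limma threshold, and only 4 members over all lists had enough positions to be tested.

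At a coarser scale, 315 bins of 5 Mb held a mean of at least 10 positions per library. limma on the same log2 values called 21 of them (6.67%), 18 higher (5.71%) and 3 lower (0.952%) with the hyperactive form, and 68 had an unadjusted p under 0.05. In simulated counts with 2-fold changes this fit recovered 27 of 31 raised bins and 16 of 27 lowered ones, so falls were found less often. The libraries of the groups did not overlap in 48 bins that were higher (15.2%) and 34 that were lower (10.8%). The median difference over all bins was −0.05. Without the positions of symmetric libraries 4 of 261 bins were called, with replicates as a block 5 of 315, and without parental replicate 2 10 of 309, all of them higher. The 21 bins are therefore given with this range.

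The 3 bins with the largest rise were the first 5 Mb of chromosome 19, the first 5 Mb of chromosome 18, and the stretch of chromosome 8 between 90 and 95 Mb. That of chromosome 19, with 202 protein-coding genes, held 34, 37 and 39 parental and 55, 56 and 63 hyperactive positions, a log2 difference of 0.97 ± 0.15 (SE; limma adjusted p = 4.1e-07). It was called in all 14 alternatives with bins of this size, with adjusted p from 9.3e-09 to 0.015. The leading genes were AP3D1, the tight junction gene TJP3 and DOT1L, a histone methyltransferase. That of chromosome 18 holds DLGAP1, which had most of its positions, and held 31, 30 and 35 against 52, 41 and 44 (0.82 ± 0.17, SE; limma adjusted p = 2.4e-04). That of chromosome 8 held 46, 44 and 55 against 62, 70 and 69 (0.79 ± 0.13, SE; limma adjusted p = 1.8e-06), led by the ciliary gene TMEM67. The bins of chromosomes 18 and 8 were called in 13 of 14 alternatives and not without the positions of symmetric libraries, at 0.58 and 0.56. The bin from 30 to 35 Mb on chromosome 4, which is nearly all PCDH7, and that from 5 to 10 Mb on chromosome 1, led by CAMTA1, were chosen after their values were seen, and were also called in all 14.

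Of the 3 bins with the largest fall, 1 was called. Chromosome 10 from 75 to 80 Mb, led by the potassium channel gene KCNMA1, held 21, 20 and 16 parental and 6, 9 and 7 hyperactive positions (−0.98 ± 0.32, SE; limma adjusted p = 0.043), and the call was kept in 3 of 13 alternatives. Among single libraries left out, it was kept only without hyperactive replicate 2. Chromosome 2 from 155 to 160 Mb held 14, 20 and 12 against 6, 5 and 3 (−1.27 ± 0.47, SE; limma adjusted p = 0.0836) and chromosome 1 from 45 to 50 Mb 9, 17 and 21 against 5, 9 and 4 (−0.96 ± 0.42, SE; limma adjusted p = 0.186). The other bins called lower were chromosome 1 from 205 to 210 Mb, with 20, 28 and 26 against 10, 9 and 10, and chromosome 20 from 35 to 40 Mb, with 30, 40 and 29 against 16, 10 and 18. Both lost their call without parental replicate 2, and the bin on chromosome 20 also without parental replicate 1 or hyperactive replicate 2.

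By whole chromosome, limma called 4 of 23 (17.4%), 2 higher (8.7%) and 2 lower (8.7%). Chromosome 19, the most gene-dense, held 277, 294 and 283 per 10000 positions in the parental and 386, 407 and 410 in the hyperactive libraries (log2 difference 0.49 ± 0.05, SE; limma adjusted p = 3.7e-05). Chromosome 22, which is also gene-rich, held 184 ± 5.33 and 220 ± 5.08 (SD, n = 3 each; 0.26 ± 0.04, SE; limma adjusted p = 0.00249). Chromosome 13, which is gene-poor, held 212 ± 18.0 and 170 ± 8.80 (SD, n = 3 each; −0.32 ± 0.07, SE; limma adjusted p = 0.00635), and chromosome 5 451 ± 3.45 and 383 ± 38.7 (SD, n = 3 each; −0.24 ± 0.07, SE; limma adjusted p = 0.0395). A relation of the differences to gene density over the 23 chromosomes was not tested. The 2 rises were kept without the positions of symmetric libraries, at 0.45 and 0.28, and the 2 falls were not, at −0.17 and −0.14. Scaled to the median over chromosomes, which shifts all differences by 0.10, the split was 7 higher and 1 lower. Chromosome 5 lost its call without parental replicate 2 or 3 or hyperactive replicate 2.

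The effect of the hyperactive form with the short transposon was also set against that with 2 other transposons, by an exact permutation of libraries within each transposon (400 assignments, smallest p 0.005, adjusted over 10 tests). With the wild-type transposon the change in number of positions was 0.09 on the log2 scale and with the symmetric transposon, where both forms are re-engineered, 0.42, against −0.33 with the short one. The short transposon was thus the 1 of these 3 in which the hyperactive libraries listed fewer positions, and the difference from each of the other two passed the test (exact permutation adjusted p = 0.01 for both). The gene-end share rose by 3.65 percentage points with the short, 1.13 with the wild-type and 0.69 with the symmetric transposon (exact permutation adjusted p = 0.01 and 0.0333 for the differences). The second of these was not past the threshold when any 1 hyperactive short library was left out, at 2.97, 2.87 and 3.04 points without replicates 1, 2 and 3, nor at equal numbers of positions (2.51) or at a height minimum of 10 (1.93). The difference from the wild-type transposon was not past it at a height minimum of 10 (1.36). Sharing between replicates rose by 15.3 points with the short transposon and changed by −0.0025 with the symmetric one (exact permutation adjusted p = 0.01). With the wild-type transposon it rose by 22.5 points, and the difference from the short one was not past the threshold (exact permutation adjusted p = 0.406), at −7.13 points. It was 8.92 and 9.09 points without WT_hyPB replicates 1 and 2, and −39.4 without replicate 3. At equal file totals it was 11.4 points and at equal numbers of positions 15.8, and the 5 last values were all past the threshold, 4 of them with the opposite sign, so no direction is given for this difference. The wild-type-transposon libraries held 346919 to 453202 positions each, and the short ones at most 9212.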

How the data were processed

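Transposon insertions were measured by sequencing in 27 libraries of 9 groups, of which 6 are reported here and the others serve comparisons of sharing, dense windows and the effect of the hyperactive form. Reads were handled with cutadapt 3.4 and HISAT2 2.2.1.0 on hg38 or GRCh38.p5, per the submitters' processing notes. Which peak caller was used, and whether duplicate reads were removed, is not given in the sources used here. The deposited peak lists give each peak's coverage signal (summed and maximal read depth) and a whole-number count, the same in each row of a file, which was taken as the total of mapped reads. The authors' files list no peak with a maximal coverage under 5.

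Positions were read from peak edges and strands were collapsed. Genes, starts and promoter sequences came from RefSeq (GRCh38.p14). Coordinates of the files and of the tables were joined without conversion, as both are versions of GRCh38, and TTAA at the positions was checked. Python 3.11.15, numpy 2.4.6 and pandas 2.3.3 were used. Library measures were compared with two-sided exact permutation tests. Positions per gene (mean of at least 3), per 5 Mb bin (mean of at least 10) and per chromosome were compared with limma 3.58.1 in R 4.3.3. The fits were over the 6 libraries, with Benjamini-Hochberg adjustment. Genes and bins were fitted on log2 of positions per 10000 plus 1 with a trend in the prior variance. Chromosomes were fitted on log2 of positions per 10000, with nothing added and no trend. The scripts were tested on simulated data. Named genes were the 10 with the most positions, and the 5 with the largest rise and the 5 with the largest fall among genes whose groups did not overlap, along with all called genes. The 3 members of each gene list with the most positions were named too, except 1 that is not reported here. The members, gene lists and tests were chosen with earlier results of these data known. Alternatives were another pseudocount, a height minimum of 10, median scaling, a fit on 15 shallow libraries, replicate numbers as a block, thinning, other filters and windows, and each library left out. Leaving out positions of symmetric libraries, leaving out libraries in the comparison of transposons, and 11 further measures were added after the files were seen.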

Additional observations from a re-analysis of the deposited data

Results flagged for a closer look

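In 6 comparisons between transposons the effect of the hyperactive form with the short transposon differed from its effect with another transposon by an exact permutation test with an adjusted p under 0.05. Against the wild-type transposon the difference was −0.42 on the log2 scale for the number of positions and 2.52 percentage points for the share within 5 kb of a gene end. Against the symmetric transposon it was −0.75 on the log2 scale for the number of positions, 15.3 points for sharing between replicates, 2.96 points for the gene-end share and −1 for the median height. File totals ran from 179014 to 256608 in the short, from 225962 to 255694 in the symmetric and from 8204478 to 9749822 in the wild-type-transposon libraries compared. At equal file totals the differences in number of positions were −1.02 and −1.69, and the gene-end difference from the wild-type transposon was 4.85 points, each past the threshold. The gene-end difference from the wild-type transposon was not past it at a height minimum of 10, and that from the symmetric transposon was not past it at equal numbers of positions, at a height minimum of 10 or without any 1 of the hyperactive short libraries. In the symmetric pair both transposases are re-engineered forms, so transposon and transposase cannot be told apart there. No library of the 6 could be tested as an outlier, since each group has 3.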

How the results depend on the processing

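The 11 measures of the libraries kept their direction under every alternative, but no exact test of 3 libraries against 3 can pass 0.05, so this says nothing about their calls. Their size moved by over 1.5 times in several. At a height minimum of 10 the differences were −3.77 points for the gene share, 11.4 for the hot-window share, 6.57 for sharing across groups and −0.098, with overlapping groups, for the share of the tallest 1%. At equal file totals they were 8.54 for sharing across groups and −0.74 for the tallest 1%, which was −0.82 without symmetric positions. The gene share differed by −3.39 over protein-coding genes alone and the hot-window share by 4.62 with windows of 1 Mb. Thinning to equal numbers of positions gives no value for the number of positions, positions per read or sharing across groups. The direction of the difference in sharing across groups follows from the number of positions, so it is no separate result.

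Called bins numbered 7 at a height minimum of 10, 8 in the fit on 15 libraries, 4 without the positions of symmetric libraries and 10 to 18 with 1 library left out, against 21. Called genes numbered 2 with median scaling, 4 with equal numbers of positions, 1 without the positions of symmetric libraries, 2 with a mean of at least 1 position, 14 with 5 kb added on either side and 4 to 8 with 1 library left out (4 without hyperactive replicate 2), against 9. Called chromosomes numbered 0 by limma at a height minimum of 10, where 6 had an unadjusted p under 0.05, 8 with median scaling, and 2 in the fit on 15 libraries or without the positions of symmetric libraries, against 4. Libraries of the same replicate number were not treated as pairs in the main tests. Their deviations from the group means over 315 bins correlated at −0.06, 0.03 and 0.10, and those of differently numbered libraries at −0.18 to 0.16. Deviations within a group cancel out by construction, so these correlations cannot show whether the libraries were paired. With the replicate block 5 bins were called, 6 genes and 3 chromosomes, and the smallest exact p was 0.25 for the library measures. PALLD turned to −0.027 at a height minimum of 10 and PDE4B to −0.071 without parental replicate 1, in a range from −0.071 to 0.397 with 1 library left out.

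Against the wild-type transposon, the difference in sharing became 11.4 at equal file totals and 15.8 at equal numbers of positions, both past the threshold, and ran from −39.4 to 9.09 with 1 library left out. That in median height became −1 at equal file totals and ran from −0.17 to 0.83 with 1 library left out. At a height minimum of 10 the gene share differed by −2.70, past the threshold, and the gene-end share by 1.36 points, which ended its call. The number of positions differed by −1.02 at equal file totals and −0.78 at a height minimum of 10, and against the symmetric transposon by −1.69 and −1.63, all past the threshold. The gene share ran from −1.63 to −0.88 with 1 library left out. Against the symmetric transposon, the gene share differed by −3.02 at equal file totals, past the threshold, by −4.05 at a height minimum of 10 and by −1.75 to −1.002 with 1 library left out. The gene-end share differed by 2.51 at equal numbers of positions, 1.93 at a height minimum of 10, both of which ended its call, and 2.54 to 3.76 with 1 library left out. The cause of these changes was not tested. Positions with a coverage under 5 are not listed, which limits every count of shared or missing positions.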
